A study of Homo sapiens with 4 samples.

Results

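Collagen, laminin and integrin genes encode the chains of the extracellular matrix and of the receptors that bind it. They were taken here as the protein-coding genes named COL, number, A, number, or starting with LAMA, LAMB, LAMC, ITGA or ITGB followed by a character for the chain. This gave 77 of the 57820 genes in the count tables, of which 43 were collagen, 11 laminin and 23 integrin genes. Another 5 genes with such names (COL7A1, LAMB2, ITGB1, ITGA8 and ITGA9) were left out because they start in stretches of chromosomes 3 and 10 that were lower as a whole in 1 tKO library each.

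RNA-seq was made from HAP1 cells, a nearly haploid human line of leukaemic origin that grows attached to the dish. The dKO group was 2 libraries of cells with RING1A and RING1B inactivated, the catalytic subunits of Polycomb repressive complex 1 (PRC1), which ubiquitinates histone H2A. The tKO group was 2 libraries of cells in which BAP1, the enzyme that removes this ubiquitin, had been inactivated as well. All were untreated and grown in the same medium, and wild-type cells were not analysed here. BAP1 and RING1A had been interrupted by an inserted STOP cassette, and how many clones of each genotype were used was not given in the sources used here. The comparison of tKO with dKO asks what loss of BAP1 changes in cells that already lack PRC1 activity. P-values below measure the spread between these libraries.

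Counts assigned to genes were 18455410 and 17990784 in the dKO and 16413169 and 16054590 in the tKO libraries. Values given below as counts are not scaled for the smaller tKO totals. BAP1 had 2046 and 2010 counts in dKO and 158 and 107 in tKO, at a log2 fold change of -3.77, and it lies within the chromosome 3 stretch that was lower in tKO 2.

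A collagen molecule is a triple helix of 3 chains, made of 1 gene product or of several, and a laminin is a cross of 1 alpha, 1 beta and 1 gamma chain. Type IV collagen and laminin form the 2 networks of the basement membrane, whereas fibrillar collagens such as types I, II and III form the fibres of cartilage, bone and connective tissue. An integrin is a pair of 1 alpha and 1 beta chain on the cell surface, and the pair decides whether the cell binds collagen, laminin, fibronectin or a protein on another cell. A gene for 1 chain is therefore best read beside the genes of the chains it assembles with.

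The 6 type IV collagen genes lie in 3 pairs, each head to head with a shared promoter region, and the pairs stood far apart in level. Stretches at the starts of each pair, as GENCODE annotates them, are shown because they hold the start regions of a pair with next to no counts and of 2 pairs that were well read. The capitals mark CpG, the dinucleotide that is dense in many promoters, and coordinates are GRCh37, written on the plus strand. The first is chr13:110959505-110959604 and runs from the outermost COL4A1 start (minus strand) to the last base before the next annotated COL4A2 exon (plus strand), while another annotated COL4A2 start, at 110958159, lies inside COL4A1. The second is chr2:228029170-228029339, between the outermost starts of COL4A4 (minus) and COL4A3 (plus), and the third is chrX:107682818-107683067, the last 250 bases before COL4A5 on the plus strand, with COL4A6 on the minus strand behind it.
COL4A1/COL4A2: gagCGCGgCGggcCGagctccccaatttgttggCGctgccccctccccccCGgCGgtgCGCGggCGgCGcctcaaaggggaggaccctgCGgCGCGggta
COL4A4/COL4A3: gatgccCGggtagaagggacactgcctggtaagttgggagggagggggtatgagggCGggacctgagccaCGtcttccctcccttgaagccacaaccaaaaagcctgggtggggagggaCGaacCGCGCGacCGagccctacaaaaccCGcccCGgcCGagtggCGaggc
COL4A6/COL4A5: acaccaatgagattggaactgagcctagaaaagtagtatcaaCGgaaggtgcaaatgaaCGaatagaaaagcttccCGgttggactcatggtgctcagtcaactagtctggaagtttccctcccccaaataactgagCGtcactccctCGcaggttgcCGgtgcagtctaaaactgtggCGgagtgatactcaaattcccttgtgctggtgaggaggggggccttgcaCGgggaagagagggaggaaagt

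These letters hold 14 CpG per 100 bases in the COL4A1/COL4A2 stretch, 7.06 in that between COL4A4 and COL4A3 and 3.2 in that before COL4A5, and the stretches were not cut in the same way. COL4A1, a chain of nearly every basement membrane, had counts of 0 and 0 in dKO and 0 and 2 in tKO. COL4A2, its usual partner, had 2 and 1 in dKO and 2 and 3 in tKO. Both were therefore at or under 3 counts in each library, the level taken as the smallest that a library can show, which is 0.163 to 0.187 CPM (a gene's counts scaled to the same library total of counts in genes) and covers counting error only.

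The other 2 pairs were expressed. COL4A3 and COL4A4 encode chains of the network found in kidney glomeruli, together with COL4A5, and their loss causes Alport syndrome. COL4A3 had 300 and 369 counts in dKO and 183 and 305 in tKO. COL4A4 had 762 and 747 in dKO and 583 and 640 in tKO. COL4A5 had 2046 and 1924 in dKO and 1559 and 1532 in tKO. COL4A6, which pairs with COL4A5 in other basement membranes, had 1443 and 1426 in dKO and 1429 and 1286 in tKO. In CPM, COL4A6 was at 78.2 and 79.3 in dKO and 87.1 and 80.1 in tKO. All 4 genes had 183 or more counts in every library, so the pair that was all but silent was the one whose chains are the commonest in the body.

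Per kilobase of exon, COL4A3 and COL4A4 were not equally abundant, whereas COL4A5 and COL4A6 were close to each other. On the RPKM scale (CPM per kilobase of merged exons), COL4A4 was 2.10 to 3.31 times COL4A3 in the 4 libraries, and COL4A6 was 0.902 to 1.17 times COL4A5. The COL4A5 and COL4A6 levels thus overlapped, and those of COL4A3 and COL4A4 did not.

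**Figure D1:**
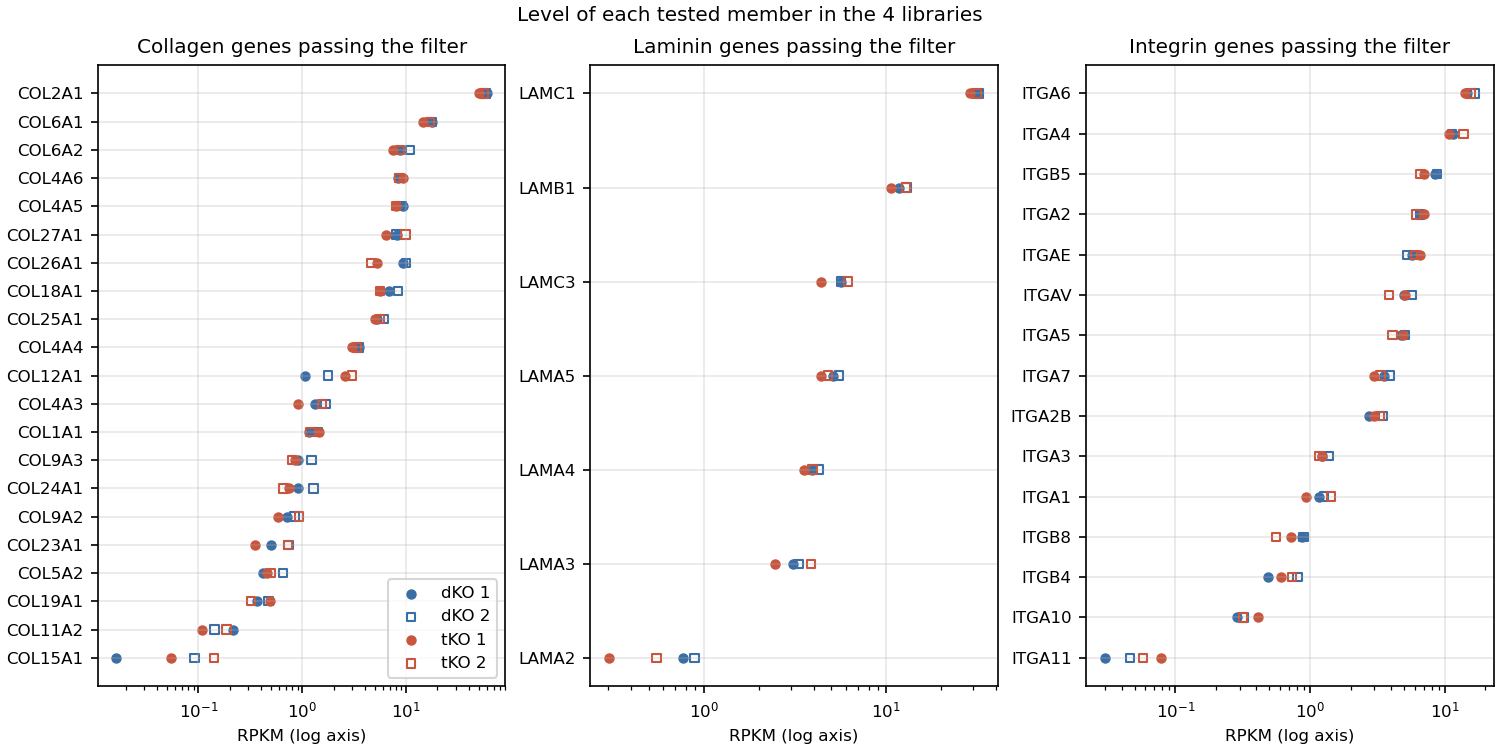
Level in RPKM on a log axis of the 43 genes that passed the filter, in panels for collagens, laminins and integrins, with 1 point per library (blue for dKO, red for tKO, filled for library 1, open for library 2). COL2A1, LAMC1 and ITGA6 head the panels, and the points of most genes lie close to each other beside the distance between genes.

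The level at which a gene could be tested was a CPM above 0.5 in at least 2 libraries, and 43 of the 77 genes passed it, 21 collagens, 7 laminins and 15 integrins. Of these, 41 were above 0.5 CPM in all 4 libraries, the exceptions being COL15A1 and ITGA11. Of the 34 that did not pass, 17 had 0 counts in every library (10 collagens, 2 laminins and 5 integrins) and 17 had at most 9 counts in any library. A count of 0 allows up to the 3-count level given above. No gene was at 0 in one genotype and above 10 counts in both libraries of the other.

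Type II collagen led the collagens. COL2A1 (GRCh37 chromosome 12, 48366750 to 48398337, minus strand), whose product is the main collagen of cartilage, had a CPM of 399.5 and 387.5 in dKO and 334 and 375 in tKO. It held 33.9% to 36.4% of all collagen counts in a library. On the RPKM scale its mean over the 4 libraries was 56.2 ± 4.26 (SD, n = 4), followed by COL6A1 at 16.8 ± 1.56, COL6A2 at 8.94 ± 1.39, COL4A6 at 8.74 ± 0.433 and COL4A5 at 8.60 ± 0.680. COL2A1 and COL6A1 each stood above the next gene in RPKM in every library, whereas the RPKM ranges of the other 3 overlapped. In CPM, which is not divided by exon length, COL27A1 and COL4A5 stood above COL6A1 in every library.

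The collagens of ordinary connective tissue were low or not detected. COL1A1, 1 of the chains of the type I fibril, had 194 and 231 counts in dKO and 212 and 174 in tKO, while COL1A2, the chain it assembles with, had 0 in all 4 libraries. COL5A2 had 56 and 86 counts in dKO and 55 and 58 in tKO, while COL5A1, the other main chain of type V, had 0 in all 4. COL3A1, the type III chain, also had 0 counts in all libraries. In types I and V a chain was thus read without the partner of its usual trimer, at this depth.

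Type VI collagen, which forms beaded filaments around cells, gave the same picture of an incomplete set. COL6A1 had 1819 and 1773 counts in dKO and 1317 and 1506 in tKO, and COL6A2 had 853 and 1040 in dKO and 657 and 751 in tKO. COL6A2 was at 0.487 to 0.609 times COL6A1 in RPKM. COL6A3, which encodes the largest chain of the filament, had 1 count in tKO 1 and 0 elsewhere, and COL6A5 and COL6A6, which can take its place, had 0 in all libraries.

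By class, 6 of 11 fibrillar collagens passed the filter, 4 of 6 type IV genes, 4 of 10 FACIT collagens (which sit on the surface of fibrils), 2 of 4 transmembrane collagens, both multiplexins (COL15A1 and COL18A1) and 0 of 3 short-chain network collagens (COL8A1, COL8A2 and COL10A1). Among the tested genes of these classes RPKM means ran from 0.0759 for COL15A1 to 56.2 for COL2A1. Over all 43 collagens, which include classes not listed here, 13 were above 1 RPKM.

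The laminin genes gave a set of chains that can assemble. LAMC1, the gamma 1 chain found in most laminins, had a CPM of 267 and 273 in dKO and 243 and 263 in tKO, and held 35.4% to 38.7% of the laminin counts. LAMB1, the beta 1 chain, had 218 and 240 in dKO and 196 and 238.2 in tKO. On the RPKM scale LAMC1 had a mean of 31.0 ± 1.55 and LAMB1 of 12 ± 1.10 (SD, n = 4), a ratio of 2.43 to 2.72 in the 4 libraries. The CPM values lie closer together, since RPKM divides by merged exons of 8446 bases for LAMC1 and 18592 for LAMB1.

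Of the 5 alpha chain genes, LAMA5, LAMA4, LAMA3 and LAMA2 passed the filter and LAMA1, the chain of the earliest embryonic basement membranes, had 0 counts. LAMA5 had the highest RPKM of the 4 (4.94 ± 0.478) and LAMA2 the lowest (0.630 ± 0.260). LAMC3, the gamma 3 chain, was at 5.48 ± 0.761 RPKM. LAMB3, a beta chain that assembles with the LAMA3 product, had 0 counts in all libraries, although LAMA3 had 822 and 863 counts in dKO and 583 and 904 in tKO.

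Among the integrins, chains that bind laminin, fibronectin and collagen were read. Of 6 alpha chains classed as leukocyte chains, 2 passed the filter, ITGA4 and ITGAE, and 4 had 0 counts in all libraries. ITGA6, the alpha 6 laminin receptor, had a CPM of 97.6 and 112 in dKO and 93.8 and 104 in tKO, and 15.3 ± 1.22 RPKM (SD, n = 4), the highest of the 23 genes in that unit. In RPKM it was followed by ITGA4 (11.9 ± 1.33), ITGB5 (7.71 ± 1.07), ITGA2 (6.55 ± 0.397), ITGAE (5.89 ± 0.536) and ITGAV (4.91 ± 0.747). The order differs in CPM, where ITGA4 stood above ITGA6 in every library, at 124 and 121 in dKO and 115 and 147 in tKO. ITGAV, with merged exons of 19336 bases against 6679 for ITGA6, had a CPM of 97.0 and 109 in dKO and 98.6 and 74.9 in tKO. The RPKM ranges of ITGB5 and ITGA2 overlapped, as did those of ITGA2 and ITGAE and those of ITGAE and ITGAV.

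ITGB1, the beta 1 chain that pairs with most of these alpha chains, lies on the short arm of chromosome 10. It is given for context only, with 13 and 14.2 RPKM in dKO and 6.26 and 11.7 in tKO. The low library was tKO 1, in which the 132 tested genes of that stretch had a median log2 ratio to dKO of -0.97. In tKO 2 the 358 tested genes of the chromosome 3 stretch had a median of -0.92, and no gene counted below lies in either.

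The alpha chains ITGAL, ITGAM, ITGAX and ITGAD, partners of beta 2 on white blood cells, had 0 counts in all libraries. ITGB2 itself had 0 and 4 counts in dKO and 2 and 0 in tKO. ITGB7, the only known beta partner of ITGAE, had 6 and 1 counts in dKO and 4 and 0 in tKO, while ITGAE had 691 and 629 in dKO and 710 and 640 in tKO. ITGA2B, the alpha chain of the platelet fibrinogen receptor, had 288 and 356 counts in dKO and 281 and 301 in tKO, while its partner ITGB3 had 4 and 0 in dKO and 6 and 3 in tKO. ITGAE and ITGA2B were thus well read in all libraries, while the beta chains known for them had at most 6 counts in any.

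Markers of other cell types were checked beside these levels. Of 8 leukocyte markers 3 were at 0 in all libraries (SPI1, CD53 and VAV1), PTPRC had 1 count in 1 library, and only CORO1A passed the filter, with a summed level of 14.4 to 16.7 CPM in dKO and 14.8 to 15.8 in tKO. Of 6 fibroblast markers only PDGFRA and THY1 passed, DCN and LUM had at most 1 count in a library and PDGFRB had 0, with a sum of 167 to 173 CPM in dKO and 121 to 142 in tKO. Of 5 epithelial markers KRT8 and KRT18 passed and EPCAM and KRT19 had 0, with 23.2 to 24 CPM in dKO and 19.2 to 23.3 in tKO. Of 4 endothelial markers KDR passed and the other 3 had 0, with 1.84 to 4.0 CPM in dKO and 2.74 to 4.20 in tKO. The fibroblast sum was lower in both tKO libraries, and its part in the results below was not tested.

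None of the 43 tested genes was differentially expressed (DE) between tKO and dKO, with DE taken as a limma adjusted p below 0.05 and a log2 fold change above 1 in size. The share of DE genes among all 15136 tested genes was 0.0132%, so a count of 0 among 43 is near what the whole table gives. Here and below, all tested genes include the 358 and 132 of the stretches on chromosomes 3 and 10, from which no member was taken. The smallest adjusted p was 0.449 for COL26A1. The edgeR quasi-likelihood test and DESeq2 also called 0 of them under this rule. Without adjustment 6 genes had a p below 0.05, which is 14% of the 43 beside 3.55% of all tested genes. Of these, 5 were lower in tKO (11.6%, beside 2.15% of all) and 1 was higher (2.33%, beside 1.4%). In size, 2 genes (COL12A1 and LAMA2) passed a fold of 2, 4.65% of the 43 beside 1.78%. The families were chosen with earlier results of these data known, so such shares, here and below, are a description and not a test.

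**Figure D2:**
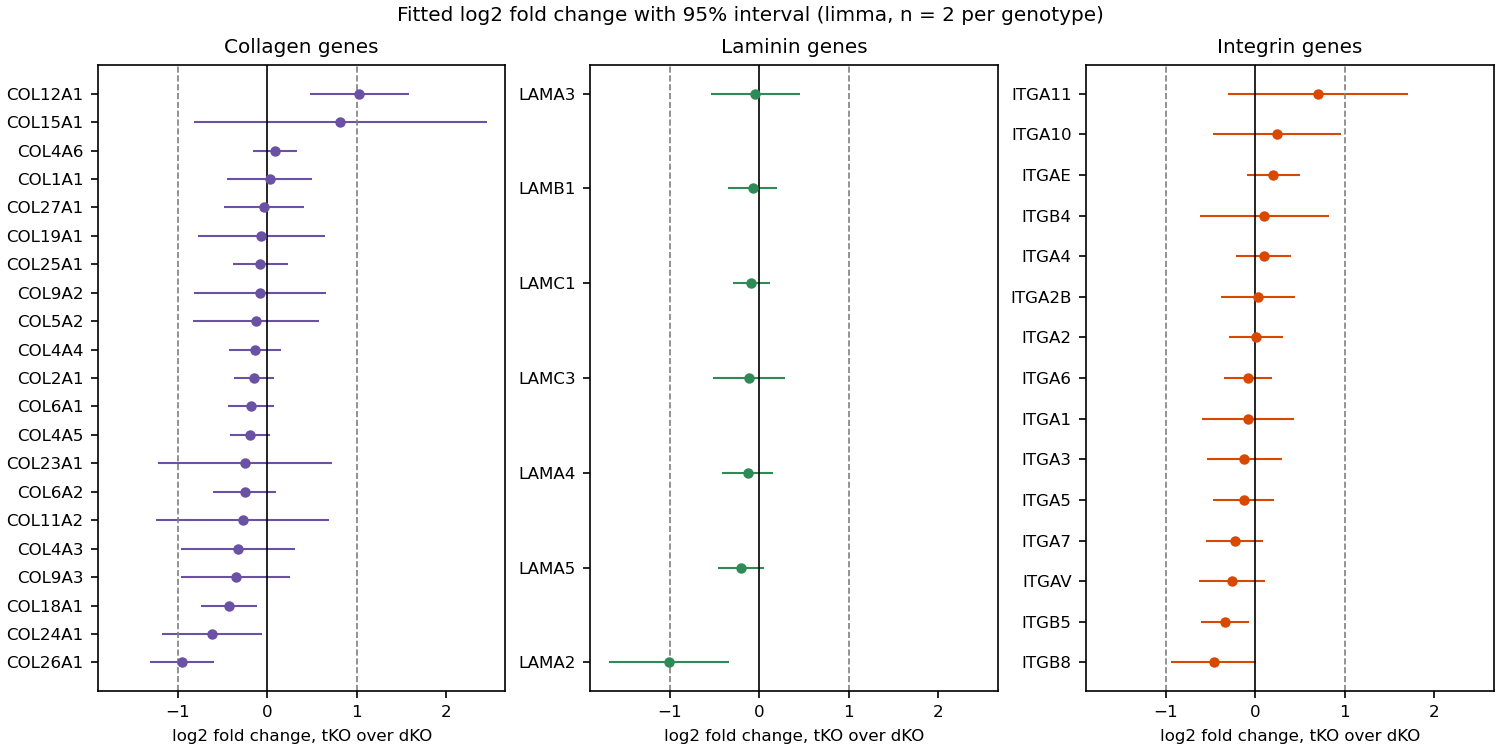
Fitted log2 fold change of tKO over dKO (limma, horizontal axis) for the 43 tested genes, by family, with bars for the 95% interval, a solid line at 0 and dashed lines at 2-fold. The intervals of 6 genes miss 0, and those of 8 genes reach past 2-fold.

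Most values lay slightly below 0, and in bulk RNA fewer cells expressing a gene and less RNA per cell cannot be told apart. The log2 fold change was negative for 32 of the 43 genes (74.4%, beside 50.3% of all tested genes), with a median of -0.12 beside -0.0014 for all genes. The median was -0.15 for the 21 collagens, of which 17 were below 0, -0.11 for the 7 laminins, of which 7 were below 0, and -0.08 for the 15 integrins, of which 8 were below 0. Both tKO libraries were below both dKO libraries for 16 genes (37.2%, beside 15.9% of all genes) and above both for 4 genes (9.30%, beside 15.8%), namely COL4A6, COL12A1, ITGAE and ITGA11. The other 23 overlapped.

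The size of these differences varied with the library. Summed over each family, collagen reached 1097 and 1144 CPM in dKO and 968 and 1094 in tKO, laminin 721 and 765 in dKO and 627 and 744 in tKO, and integrin 598 and 638 in dKO and 581 and 590 in tKO. The lowest sum of each family was in tKO 1, and tKO 2 lay within the dKO range for laminin and just under it for the other families. Without tKO 1 the median log2 fold change of the tested genes was -0.06, and without tKO 2 it was -0.20.

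The genes with the highest levels held narrow intervals around 0. COL2A1 had a log2 fold change of -0.15 (95% interval -0.37 to 0.07), LAMC1 of -0.09 (-0.30 to 0.12), LAMB1 of -0.08 (-0.35 to 0.20) and ITGA6 of -0.08 (-0.34 to 0.18). For 35 of the 43 genes the interval lay inside a 2-fold change in either direction. The 8 whose interval reached past it were COL12A1, COL15A1, COL23A1, COL11A2, COL24A1, COL26A1, LAMA2 and ITGA11, so a 2-fold change was not excluded for these at this depth and with this many libraries.

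The members with the clearest difference are described with their promoter side shown first, as the 250 bases before the outermost GENCODE start in GRCh37 with CpG in capitals, each read on the strand of its gene. COL26A1 is on the plus strand (chr7:101005906-101006155), LAMA2 on the plus strand (chr6:129204033-129204282) and COL12A1 on the minus strand (chr6:75915984-75916233). They hold 22, 9 and 14 CpG.
COL26A1: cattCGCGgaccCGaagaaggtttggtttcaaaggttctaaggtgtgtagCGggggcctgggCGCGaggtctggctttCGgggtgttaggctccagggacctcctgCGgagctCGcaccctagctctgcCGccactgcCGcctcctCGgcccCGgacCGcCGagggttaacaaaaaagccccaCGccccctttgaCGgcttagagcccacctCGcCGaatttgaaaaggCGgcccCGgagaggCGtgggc
LAMA2: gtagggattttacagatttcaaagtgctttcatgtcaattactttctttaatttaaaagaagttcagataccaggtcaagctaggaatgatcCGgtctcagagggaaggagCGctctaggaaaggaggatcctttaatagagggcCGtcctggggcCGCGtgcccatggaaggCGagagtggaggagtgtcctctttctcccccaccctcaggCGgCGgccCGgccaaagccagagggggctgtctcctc
COL12A1: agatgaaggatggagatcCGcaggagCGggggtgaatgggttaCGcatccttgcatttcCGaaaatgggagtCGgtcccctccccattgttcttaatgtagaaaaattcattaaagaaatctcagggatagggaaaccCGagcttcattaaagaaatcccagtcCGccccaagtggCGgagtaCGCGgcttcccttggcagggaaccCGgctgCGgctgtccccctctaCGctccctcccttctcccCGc

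COL26A1 (chromosome 7, 101006156 to 101202304), a small secreted collagen outside the main classes, had a CPM of 29.1 and 30.7 in dKO and 16.3 and 14.4 in tKO. The groups were well apart and the libraries of each genotype lay close together. The log2 fold change was -0.95 ± 0.15 (SE), with an interval of -1.31 to -0.60, so that tKO stood at 51.3% of the dKO mean. The limma adjusted p was 0.449, and DESeq2 gave an adjusted p of 0.0038 at a log2 fold change of -0.96, which misses the fold part of the DE rule. Without tKO 1 the log2 fold change was -1.06 and without tKO 2 it was -0.85. Without dKO 1 or dKO 2 it was -0.99 and -0.93. Such fits leave 1 library in a genotype, so only the size of the change is given here and for the genes below.

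LAMA2 (chromosome 6, 129204283 to 129837711), the alpha 2 chain of muscle and nerve basement membranes whose loss causes a muscular dystrophy, had a CPM of 20.5 and 23.6 in dKO and 7.98 and 14.6 in tKO. Both tKO libraries were lower, but they stood at 36.2% and 66.2% of the dKO mean. The log2 fold change was -1.01 ± 0.28 (SE), with an interval of -1.68 to -0.34 and a limma adjusted p of 0.996. Without tKO 2 the log2 fold change was -1.43 and without tKO 1 it was -0.60. Without dKO 1 or dKO 2 it was -1.11 and -0.92.

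COL12A1 (chromosome 6, 75794042 to 75915983), a long FACIT collagen that bridges fibrils, was the gene on the other side. Its CPM was 20.05 and 33.2 in dKO and 49.0 and 56.7 in tKO, so that the dKO libraries differed from each other by 0.70 on the log2 scale and the groups still did not overlap. The log2 fold change was 1.03 ± 0.23 (SE), with an interval of 0.48 to 1.58 and a limma adjusted p of 0.911. Without tKO 1 the log2 fold change was 1.1 and without tKO 2 it was 0.94. Without dKO 1 or dKO 2 it was 0.67 and 1.38.

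**Figure D3:**
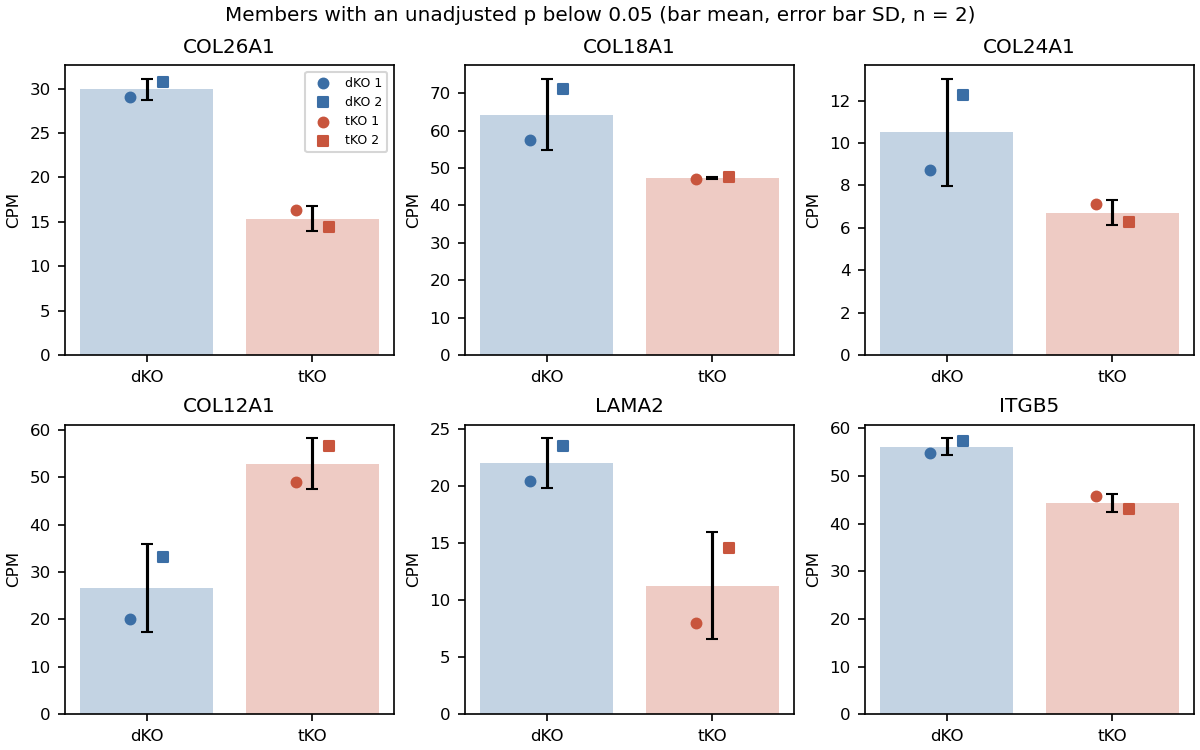
CPM in each library for the 6 genes with an unadjusted p below 0.05, with bars for the mean of each genotype and error bars for the SD (n = 2). The tKO points lie below the dKO points for COL26A1, COL18A1, COL24A1, LAMA2 and ITGB5 and above them for COL12A1.

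Another 3 genes had an unadjusted p below 0.05, and each had a limma adjusted p of 0.996. COL18A1, a basement membrane collagen whose end fragment is endostatin, had a CPM of 57.5 and 71.0 in dKO and 47.1 and 47.5 in tKO (log2 fold change -0.43 ± 0.13). COL24A1, a minor fibrillar collagen, had 8.72 and 12.3 in dKO and 7.13 and 6.29 in tKO (-0.62 ± 0.23). ITGB5, the beta 5 chain that pairs with alpha V to bind vitronectin, had 54.8 and 57.4 in dKO and 45.7 and 43.0 in tKO (-0.33 ± 0.11). In all 3 both tKO libraries were below both dKO libraries.

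Next by p-value on each side were genes whose intervals hold 0. ITGB8, another partner of alpha V, had a CPM of 13.2 and 13.6 in dKO and 10.9 and 8.47 in tKO, with an interval of -0.95 to 0.01. On the higher side ITGA11 had 6 and 9 counts in dKO and 14 and 10 in tKO, and COL15A1 had 2 and 11 in dKO and 6 and 15 in tKO. ITGAE had a log2 fold change of 0.20 (-0.10 to 0.50) and COL4A6 of 0.09 (-0.16 to 0.34).

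In the type IV pairs the fitted changes were likewise small. COL4A5 was lower in both tKO libraries, at a log2 fold change of -0.19 (-0.42 to 0.04), where COL4A6 across the shared promoter region was slightly higher in both. COL4A4 was at -0.13 (-0.42 to 0.15) and COL4A3 at -0.32 (-0.96 to 0.32). The difference between the genes of a pair was not tested.

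The libraries of 1 genotype differed from each other about as much for these genes as for the rest of the transcriptome. The median absolute log2 difference between tKO 2 and tKO 1 was 0.206 over the 43 genes and 0.203 over all 15136, and between the dKO libraries 0.133 and 0.138. A difference over 2-fold between the tKO libraries was seen in 1 of the 43 genes (2.33%, beside 6.04% of all). Between the dKO libraries it was seen in 1 (2.33%, beside 1.5%), and both times the gene was COL15A1 with its low counts. The 15136 genes include the stretches of chromosomes 3 and 10, each lower in 1 tKO library, and the 43 do not. How much these stretches add to the 6.04% was not tested. Among members at a mean of 1 CPM or more, the widest log2 differences between tKO 2 and tKO 1 were 0.98 for COL23A1, 0.83 for LAMA2, 0.74 for COL4A3, 0.69 for COL11A2 and 0.64 for COL9A2, all higher in tKO 2.

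**Figure D4:**
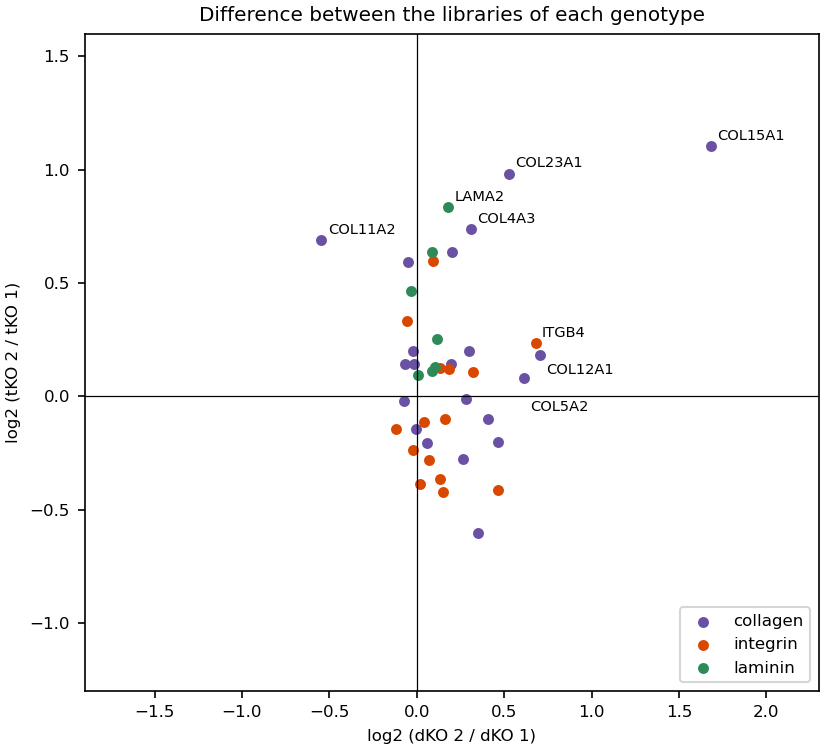
Log2 ratio of library 2 to library 1 within dKO (horizontal) and within tKO (vertical), with 1 point for each of the 43 tested genes, coloured by family. The laminin points lie above 0 on the vertical axis, and COL15A1 is past 1 on both axes.

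All 7 tested laminins were higher in tKO 2 than in tKO 1, by 0.09 (LAMC1) to 0.83 (LAMA2) on the log2 scale. Of the collagens 13 of 21 and of the integrins 6 of 15 were higher in tKO 2, beside 50.4% of all tested genes. COL23A1, a transmembrane collagen, had 25 counts in tKO 1 and 51 in tKO 2, with 40 and 58 in dKO. LAMA3 had 583 and 904 counts in these libraries, with 822 and 863 in dKO.

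CpG content of the promoter window was compared with the levels as a description. A RefSeq window of 300 bases (250 before a start and 50 after it, GRCh38.p14) was found for 54 of the 77 genes. The 23 genes without one include COL2A1 and COL6A1, the collagens with the highest RPKM. The median number of CpG in the richest window of a gene was 28 for the 34 tested genes and 13 for the 20 not tested, beside 16 for all 27305 genes with a window. High CpG did not go with expression in every gene. COL4A1 and COL4A2 each had 45 CpG, a number that 96.5% of all genes do not exceed. Only 126 bases lie between their starts, so their windows cover largely the same bases and are not separate cases. COL8A2, with 0 counts in all libraries, also had 45. COL4A5 and COL4A6, with 8 and 7 CpG, were the 2 with the fewest CpG among the tested collagens that had a window.

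**Figure D5:**
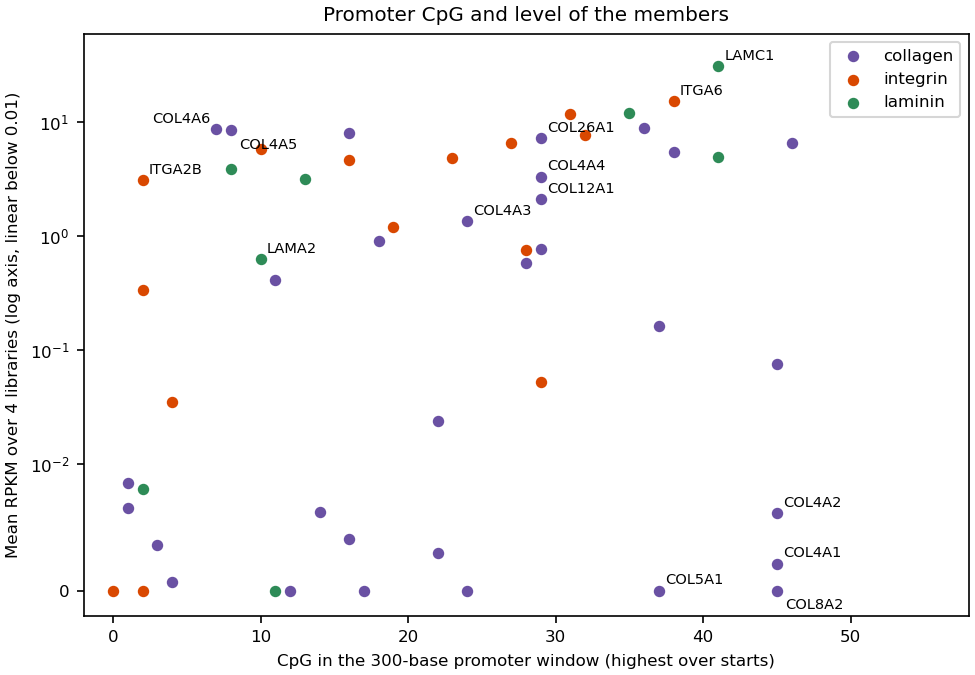
Number of CpG in the 300-base promoter window (horizontal) against mean RPKM over the 4 libraries (vertical, log axis that is linear below 0.01) for the 54 genes with a RefSeq window. COL4A1, COL4A2 and COL8A2 lie at 45 CpG near 0 RPKM, and COL4A5 and COL4A6 lie at 8 and 7 CpG above 8 RPKM.

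Genes that work with these chains were read from 4 lists of 69 genes, covering collagen processing, other matrix proteins, integrin adhesion and matrix turnover. With CRTAP, DAG1 and TIMP4 left out by position, 66 were counted and 56 were tested, of which 0 were DE in limma. DESeq2 called 1 (TIMP3). Without adjustment 2 were higher in tKO at p below 0.05 (3.57%, beside 1.4% of all tested genes) and 6 were lower (10.7%, beside 2.15%). A log2 fold change below 0 was seen in 38 (67.9%, beside 50.3%), with a median of -0.05. The lists were chosen with earlier results of these data known, so their shares, here and below, are a description and not a test.

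Of the 26 collagen processing genes counted, 23 passed the filter, and P4HA3, LOXL4 and ADAMTS14 had at most 1 count in a library. P4HB, a subunit of the prolyl hydroxylase, had 7073 and 6115 counts in dKO and 6188 and 6617 in tKO, and PPIB, a prolyl isomerase of the endoplasmic reticulum, had 13673 and 13531 in dKO and 10908 and 10893 in tKO. SERPINH1, the collagen chaperone HSP47, had 2247 and 1611 in dKO and 1583 and 1315 in tKO. With library size taken into account, the log2 fold changes were 0.13 (-0.11 to 0.37) for P4HB and -0.15 (-0.34 to 0.05) for PPIB. For SERPINH1 it was -0.23 (-0.64 to 0.19). At an unadjusted p below 0.05, 1 of the 23 tested genes in this list was higher (4.35%, beside 1.4% of all tested genes). It was P3H2, a prolyl hydroxylase, with 10 and 10 counts in dKO and 33 and 22 in tKO. On the lower side were 2 genes (8.70%, beside 2.15%), the lysyl oxidases LOXL1 and LOXL2, at log2 fold changes of -0.64 and -0.80.

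Of the 8 tested matrix proteins, the fibronectin gene FN1 had a log2 fold change of -0.03 (-0.30 to 0.25), and the basement membrane linkers NID1 and HSPG2 had -0.19 (-0.41 to 0.03) and -0.28 (-0.59 to 0.03). SPARC, a collagen-binding protein of the matrix, had 227 and 237 counts in dKO and 50 and 9 in tKO (log2 fold change -3.13, limma adjusted p = 0.839). Both tKO libraries were far below dKO, and tKO 2 was far below tKO 1. Without tKO 1 the log2 fold change of SPARC was -4.26 and without tKO 2 it was -2.01.

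The matrix turnover list held the other wide differences. Of its 6 tested genes, 1 was higher and 3 were lower at an unadjusted p below 0.05. These are 16.7% and 50%, beside 1.4% and 2.15% of all tested genes. With so few genes, in a list chosen with earlier results of these data known, these shares are a description only. TIMP3, an inhibitor of metalloproteinases that binds to the matrix, had 135 and 138 counts in dKO and 43 and 19 in tKO (log2 fold change -2.01, limma adjusted p = 0.744, DESeq2 adjusted p = 0.026). TIMP1, a secreted inhibitor, had 441 and 402 in dKO and 245 and 42 in tKO (-1.85, limma adjusted p = 0.996). MMP2, a gelatinase, had 272 and 347 in dKO and 518 and 437 in tKO (0.80), and MMP15, a membrane metalloproteinase, had 217 and 251 in dKO and 118 and 138 in tKO (-0.69). Without tKO 1 the log2 fold changes of TIMP3, TIMP1 and LOXL2 were -2.56, -3.10 and -1.13. Without tKO 2 those of TIMP3 and P3H2 were -1.46 and 1.70. Only 1 side is given for TIMP1, LOXL2 and P3H2, so the level in each tKO library is added. As a share of the dKO mean, tKO 1 and tKO 2 stood at 64.6% and 11.3% for TIMP1. They stood at 68.7% and 43.9% for LOXL2 and at 366% and 250% for P3H2. TIMP2, another inhibitor, had a log2 fold change of -0.13 (-0.39 to 0.13).

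Of the 19 tested genes of integrin adhesion, 0 had an unadjusted p below 0.05, which is near the 3.55% of all tested genes. All lay between -0.18 and 0.49 on the log2 scale. The talin gene TLN1, whose product switches integrins on, had 5955 and 5003 counts in dKO and 4756 and 5327 in tKO, a log2 fold change of 0.05 (-0.22 to 0.33). The focal adhesion kinase gene PTK2 was at -0.02 (-0.23 to 0.19). FERMT3, the kindlin of blood cells, had 13 and 11 counts in dKO and 22 and 11 in tKO.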

How the data were processed

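RNA was taken from untreated HAP1 cells, 2 dKO and 2 tKO libraries, which the methods of the study call biological replicates, and polyadenylated transcripts were converted to stranded libraries. The deposited values are raw counts per gene made by the authors with STAR (2.5.2b) on GRCh37 with GENCODE 19, after trimming with cutadapt (1.12) through Trim Galore (0.4.4) and removal of ribosomal RNA with Bowtie (1.2), with no normalisation and no pooling. The column of reads antisense to the gene was used, and the other strand held 4.01% to 4.24% of stranded gene reads. Reads that were unmapped, in several places or in no gene stayed out of library sizes and made 27.3% to 28.7% of all reads.

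Symbols, positions and merged exon lengths came from GENCODE 44 lifted to GRCh37, matched on gene identifiers for 55538 of 57820 genes. RPKM values use these lengths, which take in the exons of all annotated transcripts. An RPKM comparison between genes therefore depends on them. The test covered the 15136 genes that exceeded 0.5 CPM in 2 or more libraries. Counts became log2-CPM with TMM factors (edgeR 4.0.16, prior count 2) and were fitted with limma (3.58.1, R 4.3.3) with a mean-variance trend and genotype as the only term. P-values were adjusted by Benjamini-Hochberg over all tested genes, and DE was an adjusted p below 0.05 with an absolute log2 fold change above 1. The filter, TMM, linear model and thresholds follow the study. Fold changes on this scale understate those of genes with few counts. The fit was tested on simulated data with changes larger than that of any member, so its power at smaller changes was not measured.

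The genes, partner lists and cell type markers were chosen with earlier results of these data known. Named were the 5 collagens, 4 laminins and 6 integrins with the highest mean RPKM, any DE member, the 5 members with the smallest p in each direction, the 5 with the widest difference between tKO libraries at a mean of at least 1 CPM, members at 0 counts in both libraries of a genotype and above 10 in both of the other, 7 pairs of chains that neighbour or assemble, and leukocyte and platelet integrin chains. Other members were named from their class. The values of 1 member are not reported here. The endothelial marker PECAM1 was not matched and was not used here. Alternatives were edgeR's quasi-likelihood test, DESeq2 (1.42.0), limma-voom, limma without a trend, RLE factors, library totals, no filter, a CPM filter of 5, unstranded counts, a prior count of 0.25, a replicate block and leaving out each library. Sequences were read from GRCh37, and CpG counts in promoter windows from RefSeq (GRCh38.p14).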

Additional observations from a re-analysis of the deposited data

How the results depend on the processing

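No collagen, laminin or integrin gene was DE with all 4 libraries, under limma, edgeR, DESeq2, limma-voom, limma without a trend, RLE factors, library totals, no filter, a CPM filter of 5, unstranded counts, a prior count of 0.25 or a replicate block. Leaving out 1 library gave 0 to 2 DE members, 2 to 15 members at an unadjusted p below 0.05 and 0 to 4 DE partner genes, and in these fits the lone library of a genotype is assumed to vary like the other group. The members called were COL12A1 and COL26A1 without tKO 1 and LAMA2 without tKO 2. Over all tested genes the DE count was 2, against 1 with edgeR, limma without a trend, a CPM filter of 5 or unstranded counts, 0 with no filter, 25 with DESeq2, 13 with the replicate block and 0 to 480 without 1 library. DESeq2 called 1 partner gene. The count of members past 2-fold between genotypes was 2, against 0 with edgeR, 0 with DESeq2, 3 with limma-voom or a prior count of 0.25 and 1 to 3 without 1 library. Past 2-fold between the tKO libraries there was 1 member, against 2 with library totals or a prior count of 0.25, 5 with no filter and 0 at a CPM above 5. Between the dKO libraries there was 1, against 6 with no filter and 0 at a CPM above 5. The causes were not tested, except that the filters change which genes are counted. The median log2 fold change of members kept its sign in all settings, from -0.20 to -0.06 without 1 library.

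The direction of small differences was not stable. ITGA2 was at 0.0095 and at -0.0067 with unstranded counts. Leaving out 1 library turned the sign of COL15A1 (-0.024 to 1.38), COL1A1 (-0.11 to 0.17), ITGA2B (-0.13 to 0.19), ITGA6 (-0.18 to 0.0098), ITGA2 (-0.11 to 0.13), COL23A1 (-0.74 to 0.25), COL9A2 (-0.40 to 0.24), COL5A2 (-0.43 to 0.18), LAMB1 (-0.20 to 0.050), LAMC3 (-0.35 to 0.12), COL4A3 (-0.69 to 0.048), COL11A2 (-0.62 to 0.072) and ITGA4 (-0.072 to 0.26), all as log2 fold changes.

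The replicate numbers were not taken as pairs, since deviations of same-numbered libraries from their group means correlated at only 0.0581 over 15136 genes. With the replicate number as a block 0 members were DE, as without it. With 2 libraries a genotype and 16054590 to 18455410 counts each, the 95% intervals of 8 of the 43 tested members reached past 2-fold.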
